A study of Mus musculus with 8 samples.

Results

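The cells studied were N31, a line of neural progenitor cells derived from mouse embryonic stem cells, and the genes examined here are 37 that separate epithelial from mesenchymal cells. They are 26 epithelial genes (junction proteins, keratins and their regulators) and 11 mesenchymal genes (transcription factors, cadherins and markers). The 37 were taken as a list of symbols, and a probe belonged to the list when its RefSeq accession carried one of those symbols. All 37 had a probe, 53 probes in all, among 18842 genes with a named probe. Of the 37, 31 passed the filter on dim probes (in 1 group or more, both arrays had to be well above background) and were tested among 13615 genes: 20 epithelial and 11 mesenchymal.

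Total RNA was labelled with a single dye (Cy3) and hybridised to whole mouse genome arrays, 8 arrays in 4 groups of 2. The cells expressed either W20, which the series title places among bacterial proteins that speed up reprogramming, or EGFP, the green fluorescent control protein. EGFP NPC and W20 NPC were neural progenitors (NPC) kept on gelatin with EGF and bFGF at 10 ng/ml. EGFP 72 h and W20 72 h were such cells 72 h into reprogramming. Those cells had Dox (doxycycline) at 40 ng/ml throughout, the first 48 h in NPC medium and the last 24 h in GMEM with 10% KSR (a serum replacement), LIF at 1000 U/ml, ACTH, pyruvate, nonessential amino acids and 2-mercaptoethanol. What Dox induces, how W20 and EGFP were expressed and whether N31 is a clone are not given in the sources used here. Nothing says that replicates were separate cultures, so p-values measure only how far these arrays differ, and that spread may be technical.

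Epithelial cells are held together by E-cadherin junctions, tight junctions of claudins and ZO proteins, and desmosomes anchored to keratin filaments. Mesenchymal cells lack most of these, express N-cadherin and vimentin, and carry factors of the Snail, Zeb and Twist families, which repress E-cadherin and other epithelial genes. Reprogramming of fibroblasts begins with a mesenchymal-to-epithelial change in which Snail factors fall and junction genes rise. Neural progenitors stand apart from both types, since they form N-cadherin junctions and express vimentin. The comparisons address whether such a change had begun by 72 h and whether W20 altered it.

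Values are log2 of the spot signal minus the array's 75th percentile, so 0 is the 75th percentile of that array, and levels are compared only between arrays for 1 probe. A difference is given as log2 ± its standard error (SE) from the fit, n = 2 arrays per group, with limma's adjusted p. All 4 NPC arrays were on 1 slide and all 4 arrays of 72 h on another, scanned apart, so slide and stage cannot be told apart in any change over 72 h. On each slide the EGFP arrays lay at positions 1 and 2 and the W20 arrays at 3 and 4, so W20 and position cannot be told apart either. The share of spots well above background was 57.0% to 62.4%, and precision is limited by the number of arrays.

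The neural progenitor markers Nes, Sox2, Slc1a3, Sox9 and Pax6 were well above background on all 8 arrays, and Olig2 on none. Fabp7, another defining marker, stood well above background on a single NPC array and on all 4 arrays at 72 h. Of 6 fibroblast markers, 5 (Col1a1, Col1a2, Col3a1, Pdgfra and Dcn) were also well above background on all 8 arrays. The summed signal of the 6, in units of the array's 75th percentile, was 147 and 167 in EGFP NPC, 102 and 99.0 in W20 NPC, 135 and 138 in EGFP 72 h and 89.2 and 92.1 in W20 72 h. Most of that sum was Col1a2, which lay between 6.32 and 7.14 in log2, while no other of the 6 was above 4.33. In NPC all 6 were called lower with W20, and at 72 h 5 of 6. Lum was well above background in EGFP NPC alone and passed the filter only through that group, so a difference was built into its entry. The part of fibroblast-like cells in the results below was not tested, and in bulk RNA fewer cells of a type and less RNA per cell cannot be told apart. Of 5 pluripotent markers with a probe, Zfp42 and Dppa5a were well above background on all 8 arrays, and Pou5f1 and Dppa3 on none. Esrrb was well above background on both arrays of every group except W20 72 h, where it was so on none. The endothelial markers Kdr and Tek, well above background on no NPC array, were so on 4 and 3 of the 4 arrays at 72 h, while Pecam1 and Cdh5 were so on none; the summed signal of the 4 was 0.0208 to 0.0278 in NPC and 0.149 to 0.202 at 72 h. The summed signal was 0.0285 to 0.0448 for 3 immune markers and 0.0411 to 0.182 for 4 neuron markers.

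The epithelial genes did not move as 1 block over 72 h. In EGFP cells 9 of 20 rose and 9 fell, and in W20 cells 8 rose and 12 fell. The desmosomal genes Perp and Dsp and the E-cadherin gene Cdh1 rose, while Cldn6, Epcam, Krt18, Pkp3 and Plet1 fell. Among mesenchymal genes Snai2, Twist2, Snai1 and S100a4 fell in both kinds of cells, whereas Cdh2 and Zeb1 rose. Counting all 31 tested members, 12 rose and 15 fell with EGFP, or 38.7% and 48.4%, against 36.1% and 33.9% of all genes tested (69.9% in either direction). With W20, 10 rose and 18 fell, or 32.3% and 58.1%, against 37.5% and 37.2%. The median change of the members was -0.15 with EGFP and -0.28 with W20, against 0.01 and 0.01 over all genes. Cldn1, Tjp3 and Grhl2 passed the filter only through the groups in which they were bright, so a difference was built into their entry. The fit was repeated over probes well above background on all 8 arrays, which kept 28 members. There 10 rose and 15 fell with EGFP, and 8 rose and 18 fell with W20. The 18 include Twist1, which did not pass in the main fit (adjusted p = 0.0504). Over all genes in that repeated fit 4597 rose and 4278 fell with EGFP, and 4757 rose and 4685 fell with W20.

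**Figure D1:**
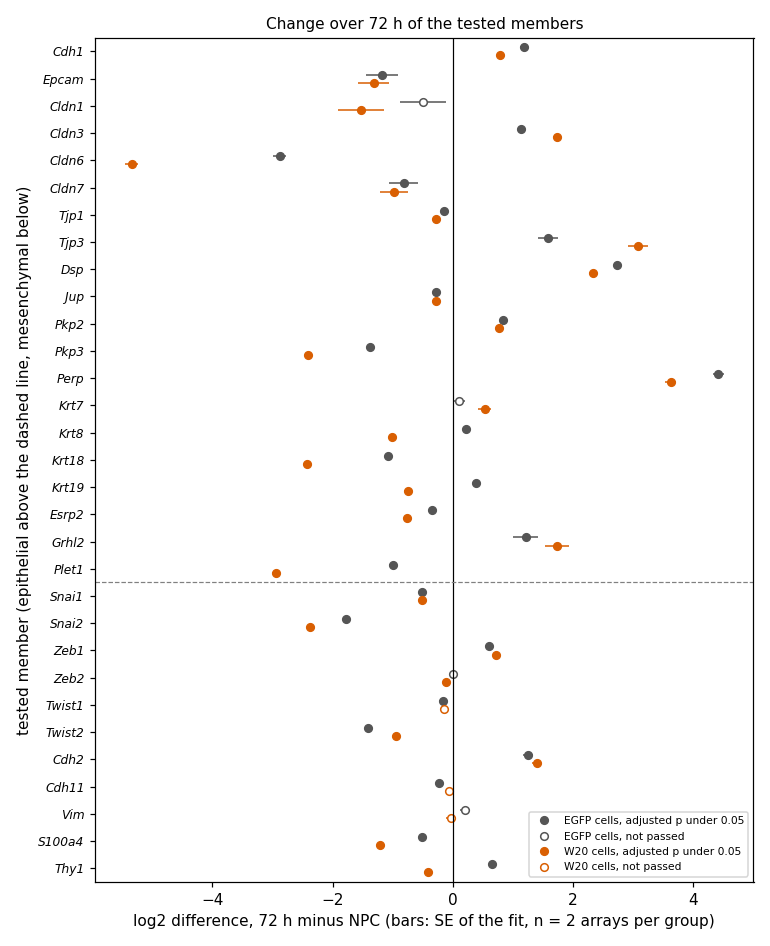
The log2 change from NPC to 72 h (x axis, 72 h minus NPC) of each of the 31 tested members, in EGFP cells (grey) and W20 cells (orange), with bars for the SE of the fit (n = 2 arrays per group). Filled points passed an adjusted p of 0.05. Epithelial members lie on both sides of 0, from Perp at 4.42 with EGFP to Cldn6 at -5.34 with W20.

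Before reprogramming, more epithelial genes were higher than lower with W20. In NPC, 10 of 20 epithelial members were higher and 4 lower in W20 than in EGFP cells, led by Plet1, Cldn6, Dsp, Krt19 and Perp, each at least 2-fold higher. Of the 11 mesenchymal members, Snai1, Twist1 and Thy1 were lower and Zeb2 higher. Over all 31 members this is 11 higher and 7 lower, or 35.5% and 22.6%, against 31.8% and 23.7% of all genes (55.5% in either direction), so the share called was near that of all genes. The median of the epithelial members was 0.30 and that of all genes 0.04.

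At 72 h more of these genes were lower than higher with W20. Of 20 epithelial members 5 were higher and 7 lower in W20 cells, with Dsp the most raised and Cldn6, Pkp3, Cldn7 and Krt18 the most lowered. Of 11 mesenchymal members 5 were lower (Thy1, S100a4, Snai2, Snai1 and Twist1) and 2 higher (Twist2 and the tested Cdh11 probe). Over all members this is 7 higher and 12 lower, or 22.6% and 38.7%, against 28.5% and 24.3% of all genes. Of the calls over all genes 53.9% were higher, but 39.6% with spike-in scaling, under which 4 members were higher and 11 lower. The count of 7 higher members fell to 3 without EGFP 72 h replicate 1 and to 4 without W20 72 h replicate 2.

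**Figure D2:**
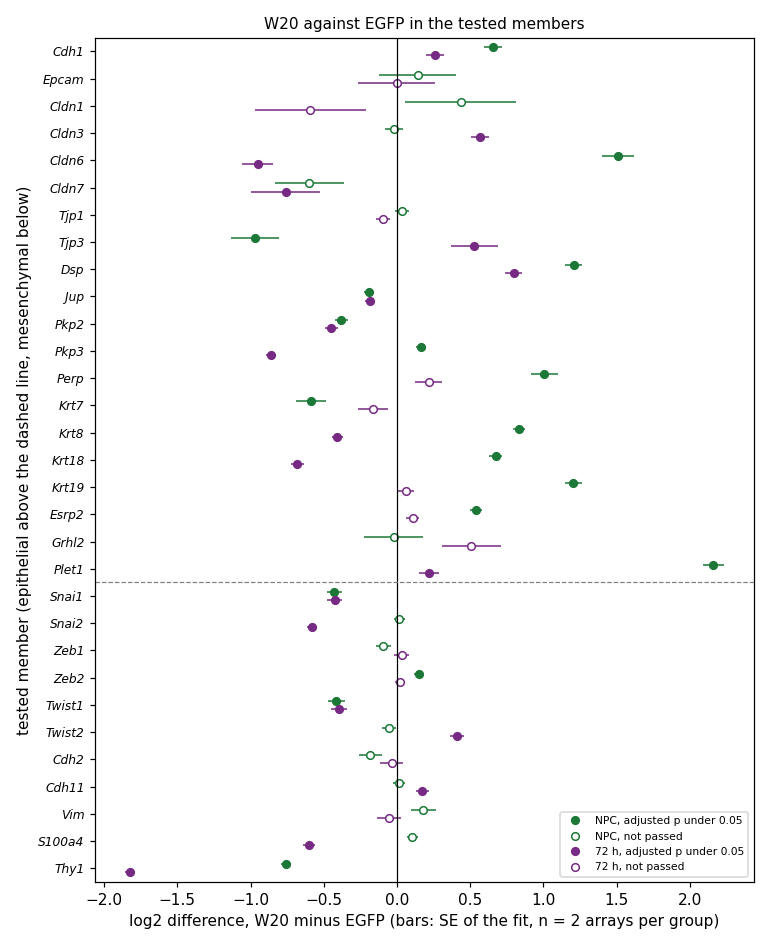
The log2 difference of W20 minus EGFP (x axis) of each tested member in NPC (green) and at 72 h (purple), with bars for the SE of the fit (n = 2 arrays per group) and filled points for an adjusted p under 0.05. The keratins Krt8 and Krt18 and the claudin Cldn6 lie to the right of 0 in NPC and to the left at 72 h.

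Cdh1 codes for E-cadherin, the adhesion receptor of epithelial adherens junctions and the gene most used to mark an epithelial change. Its probe read -4.75 and -4.89 in EGFP NPC, -4.11 and -4.22 in W20 NPC, -3.62 and -3.65 in EGFP 72 h and -3.37 and -3.38 in W20 72 h. The order was EGFP NPC, W20 NPC, EGFP 72 h and W20 72 h from lowest to highest, with no overlap between groups. Cdh1 rose over 72 h by 1.19 ± 0.0606 with EGFP (2.28-fold, adjusted p = 1.75e-05) and by 0.79 ± 0.0606 with W20 (adjusted p = 6.54e-05). W20 cells were higher by 0.65 ± 0.0606 in NPC (adjusted p = 0.000501) and by 0.26 ± 0.0606 at 72 h (adjusted p = 0.0143). With normexp background correction the NPC difference was 0.11 (adjusted p = 0.276), which ended that call. The call at 72 h ended when any 1 array of that stage was omitted (adjusted p = 0.0505 to 0.0672) and with spike-in scaling (adjusted p = 0.125).

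Epcam, an epithelial adhesion molecule, moved the other way. It read -2.75 and -2.60 in EGFP NPC, -2.15 and -2.92 in W20 NPC, -3.97 and -3.73 in EGFP 72 h and -4.02 and -3.68 in W20 72 h. All 4 NPC arrays were above all 4 arrays of 72 h, and the 2 W20 NPC arrays lay further apart than the EGFP and W20 means. Epcam fell by 1.17 ± 0.262 with EGFP (adjusted p = 0.00827) and fell by 1.32 ± 0.262 with W20 (adjusted p = 0.00462), and W20 and EGFP cells differed by 0.14 ± 0.262 in NPC and 0.00 ± 0.262 at 72 h, neither of which passed. Cdh3, which codes for P-cadherin, could not be tested, being well above background on 1 of 8 arrays.

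The tight junction genes split between claudins that rose and claudins that fell. Claudins are the membrane proteins that seal the space between epithelial cells. Cldn6, a claudin of embryonic epithelia, read 0.04 and -0.19 in EGFP NPC, 1.35 and 1.52 in W20 NPC, -2.85 and -3.07 in EGFP 72 h and -3.92 and -3.91 in W20 72 h. The W20 NPC arrays were the highest and the W20 72 h arrays the lowest, with EGFP cells between them at each stage. Cldn6 was 1.51 ± 0.109 higher with W20 in NPC (2.85-fold, adjusted p = 0.000237) and -0.95 ± 0.109 at 72 h, where it was lower (adjusted p = 0.00112). Over 72 h it fell by 2.88 ± 0.109 with EGFP (7.38-fold, adjusted p = 5.96e-06) and fell by 5.34 ± 0.109 with W20 (40.6-fold, adjusted p = 4.73e-07).

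Cldn3 went up where Cldn6 went down. It read -2.84 and -2.96 in EGFP NPC, -2.94 and -2.90 in W20 NPC, -1.72 and -1.79 in EGFP 72 h and -1.13 and -1.25 in W20 72 h. The 4 NPC arrays overlapped between W20 and EGFP, and at 72 h both W20 arrays were above both EGFP arrays. Cldn3 rose by 1.14 ± 0.0611 with EGFP (adjusted p = 2.11e-05) and by 1.73 ± 0.0611 with W20 (3.32-fold, adjusted p = 2.89e-06). W20 cells were 0.57 ± 0.0611 higher at 72 h (adjusted p = 0.000916) and differed by -0.02 ± 0.0611 in NPC, which did not pass.

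Cldn7 read -2.15 and -2.32 in EGFP NPC, -2.84 and -2.82 in W20 NPC, -2.67 and -3.44 in EGFP 72 h and -3.78 and -3.85 in W20 72 h. The 2 EGFP 72 h arrays lay far apart, and both were below both EGFP NPC arrays. Cldn7 fell by 0.82 ± 0.236 with EGFP (adjusted p = 0.0222) and fell by 0.98 ± 0.236 with W20 (adjusted p = 0.0103). At 72 h it was -0.76 ± 0.236 in W20 cells (adjusted p = 0.0382), and in NPC its difference of -0.60 ± 0.236 did not pass (adjusted p = 0.0752) but did under 6 other settings (adjusted p = 0.00252 to 0.0443), among them the omission of either EGFP 72 h array. The call at 72 h ended without any 1 NPC array or either W20 72 h array (adjusted p = 0.0604 to 0.124) and with normexp (adjusted p = 0.0534), quantile scaling (adjusted p = 0.0533), no filter on dim probes (adjusted p = 0.057) or only the arrays compared (adjusted p = 0.0954). The call over 72 h with EGFP ended without either EGFP NPC array (adjusted p = 0.0552 to 0.0965) and with only the arrays compared (adjusted p = 0.0664).

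Of the ZO scaffold proteins beneath tight junctions, Tjp3 (ZO-3) rose out of the background and Tjp1 (ZO-1) fell, slightly on its tested probe. Tjp3 read -6.83 and -6.41 in EGFP NPC, -7.62 and -7.57 in W20 NPC, -5.18 and -4.90 in EGFP 72 h and -4.41 and -4.60 in W20 72 h. It was well above background on 0 of 4 NPC arrays and on all 4 arrays at 72 h, at least 1.49-fold higher at 72 h with EGFP (adjusted p = 0.0003) and at least 1.88-fold with W20 (adjusted p = 1.39e-05). At least means that the dim group was set at the lowest signal well above background on its arrays, or at the probe's own signal where that was higher. With normexp the EGFP change was 0.07 (adjusted p = 0.593), which ended the call. W20 cells were 0.53 ± 0.163 higher at 72 h (adjusted p = 0.0373), a call that ended without W20 NPC replicate 1 or 2, EGFP 72 h replicate 1 or W20 72 h replicate 1 or 2 (adjusted p = 0.0596 to 0.164), with normexp (adjusted p = 0.087) and when dim probes were kept (adjusted p = 0.0559). Its call as lower in W20 NPC compares signals that were not above background, so no fold is given.

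The tested Tjp1 probe lay between -0.74 and -0.39 on all 8 arrays, with changes of -0.15 ± 0.0497 with EGFP and -0.28 ± 0.0497 with W20 (adjusted p = 0.0401 and 0.00297). A second, dimmer Tjp1 probe, well above background on all 8 arrays, fell more. Its changes were -0.49 ± 0.0541 with EGFP and -0.52 ± 0.0541 with W20 (adjusted p over probes = 0.000436 and 0.000283), and neither of its W20 differences passed. On the tested probe the W20 difference at 72 h, -0.10 ± 0.0497, passed only without W20 72 h replicate 2. The EGFP call of the tested probe ended without any 1 array other than those of W20 72 h. It also ended with the replicate block (adjusted p = 0.0614), median scaling (adjusted p = 0.162), spike-in scaling (adjusted p = 0.32) or no filter (adjusted p = 0.0753). Cldn1, a claudin of skin and other epithelia, was well above background on 1 EGFP NPC array, on both W20 NPC arrays and on no array at 72 h, and was at least 1.36-fold lower at 72 h with W20 (adjusted p = 0.0117). Its values were -5.05 and -5.34 in EGFP NPC, -4.83 and -4.70 in W20 NPC, -5.72 and -5.68 in EGFP 72 h and -5.67 and -6.91 in W20 72 h. That call ended without W20 NPC replicate 2 (adjusted p = 0.0502). The EGFP change of -0.50 ± 0.38 did not pass (adjusted p = 0.283), but did with normexp, with only the arrays compared and without either W20 72 h array (adjusted p = 0.01 to 0.0192). Its W20 difference in NPC of 0.44 ± 0.38 did not pass (adjusted p = 0.369), but did without either W20 72 h array and with the authors' value table (adjusted p = 0.0238 to 0.0497). At 72 h its W20 difference did not pass with all arrays but did without W20 72 h replicate 1 (adjusted p = 0.00355), and since no array of 72 h was well above background no size is given. Cldn4 and Ocln, which codes for occludin, were well above background on no array.

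Desmosomes rivet epithelial cells to each other, and their genes did not all move the same way. Perp had the largest rise of the list in both kinds of cells, and Dsp the next largest with EGFP. Perp, a tetraspan protein of desmosomes and a target of p53, read -1.35 and -1.32 in EGFP NPC, -0.23 and -0.43 in W20 NPC, 3.16 and 3.002 in EGFP 72 h and 3.38 and 3.22 in W20 72 h. Both stages were separated on all arrays, and in NPC both W20 arrays were above both EGFP arrays. Perp rose by 4.42 ± 0.0912 with EGFP (21.4-fold, adjusted p = 9.26e-07) and by 3.63 ± 0.0912 with W20 (12.4-fold, adjusted p = 8.94e-07). W20 cells were 1.01 ± 0.0912 higher in NPC (2.01-fold, adjusted p = 0.000474), and at 72 h the difference of 0.22 ± 0.0912 did not pass (adjusted p = 0.0932), but passed with the replicate block (adjusted p = 0.0396).

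Dsp codes for desmoplakin, which links desmosomes to keratin filaments. Its tested probe read -2.35 and -2.38 in EGFP NPC, -1.19 and -1.12 in W20 NPC, 0.35 and 0.40 in EGFP 72 h and 1.10 and 1.25 in W20 72 h. The groups followed the same order as Cdh1, from EGFP NPC to W20 72 h, with no overlap. Dsp rose by 2.74 ± 0.0572 with EGFP (6.69-fold, adjusted p = 9.45e-07) and by 2.33 ± 0.0572 with W20 (5.04-fold, adjusted p = 8.21e-07). It was higher with W20 by 1.21 ± 0.0572 in NPC (2.31-fold, adjusted p = 8.96e-05) and by 0.80 ± 0.0572 at 72 h (adjusted p = 0.000244). A second Dsp probe that was well above background on all 8 arrays read -3.61 and -3.65 in EGFP NPC, -2.74 and -2.65 in W20 NPC, -1.04 and -0.87 in EGFP 72 h and -0.21 and -0.15 in W20 72 h and gave the same order. Of the 2 others, 1 cleared the background on 3 of 8 arrays and passed in none of the 5 comparisons, and 1 was so on 1 array.

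The plakophilins, plaque proteins of desmosomes, went apart. Pkp2 read 1.66 and 1.59 in EGFP NPC, 1.21 and 1.27 in W20 NPC, 2.50 and 2.41 in EGFP 72 h and 2.03 and 1.996 in W20 72 h, and Pkp3 read 1.12 and 1.07 in EGFP NPC, 1.28 and 1.23 in W20 NPC, -0.26 and -0.30 in EGFP 72 h and -1.14 and -1.15 in W20 72 h. Every array of 72 h was above every NPC array for Pkp2 and below for Pkp3. Pkp2 rose by 0.84 ± 0.0464 with EGFP and by 0.77 ± 0.0464 with W20 (adjusted p = 2.45e-05 and 2.43e-05). Pkp3 fell by 1.38 ± 0.0344 with EGFP (adjusted p = 1.62e-06) and fell by 2.40 ± 0.0344 with W20 (5.28-fold, adjusted p = 2.21e-07).

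With W20, Pkp2 was lower at both stages, by -0.38 ± 0.0464 in NPC (adjusted p = 0.00125) and -0.45 ± 0.0464 at 72 h (adjusted p = 0.000789). Pkp3 was -0.86 ± 0.0344 at 72 h (adjusted p = 4.85e-05) and 0.16 ± 0.0344 in NPC (adjusted p = 0.00949), where the call ended with spike-in scaling (adjusted p = 0.216) and without EGFP NPC replicate 2 or the first W20 NPC replicate (adjusted p = 0.0551). Jup, plakoglobin, lay between -1.36 and -0.84 on the 8 arrays and was lower with W20 by -0.19 ± 0.0353 in NPC and -0.18 ± 0.0353 at 72 h (adjusted p = 0.00588 and 0.00716). Both calls ended with spike-in scaling (adjusted p = 0.106 and 0.0938). Over 72 h Jup fell by 0.28 ± 0.0353 with EGFP and fell by 0.28 ± 0.0353 with W20 (adjusted p = 0.000669 and 0.000624).

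The keratins of simple epithelia, Krt8, Krt18 and Krt19, were all higher with W20 in NPC, and all 3 fell over 72 h in W20 cells. Krt8 and Krt18 code for partners that assemble into 1 filament. Krt8 read 5.23 and 5.15 in EGFP NPC, 5.997 and 6.05 in W20 NPC, 5.43 and 5.40 in EGFP 72 h and 5.003 and 5.01 in W20 72 h, and Krt18 read 6.79 and 6.72 in EGFP NPC, 7.39 and 7.48 in W20 NPC, 5.70 and 5.67 in EGFP 72 h and 4.99 and 5.01 in W20 72 h. For both, the W20 NPC arrays were the highest and the W20 72 h arrays the lowest. In NPC, Krt8 was 0.83 ± 0.0393 (adjusted p = 8.96e-05) and Krt18 0.68 ± 0.0449 (adjusted p = 0.000194) higher with W20. At 72 h Krt8 was lower with W20 at -0.41 ± 0.0393 (adjusted p = 0.000628) and Krt18 at -0.68 ± 0.0449 (adjusted p = 0.000187).

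Over 72 h Krt18 fell by 1.07 ± 0.0449 with EGFP (adjusted p = 8.64e-06) and fell by 2.43 ± 0.0449 with W20 (5.38-fold, adjusted p = 3.68e-07). Krt8 rose by 0.22 ± 0.0393 with EGFP (adjusted p = 0.0031) and fell by 1.02 ± 0.0393 with W20 (adjusted p = 3.98e-06). A second Krt8 probe gave the same signs and calls in all 5 comparisons. The partners thus changed in opposite directions in EGFP cells, an unequal change within the same arrays.

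Krt19 read 2.34 and 2.19 in EGFP NPC, 3.42 and 3.51 in W20 NPC, 2.67 and 2.64 in EGFP 72 h and 2.73 and 2.70 in W20 72 h. The W20 NPC arrays stood above the rest and the EGFP NPC arrays below. Krt19 was 1.20 ± 0.0587 higher with W20 in NPC (2.30-fold, adjusted p = 9.66e-05) and differed by 0.06 ± 0.0587 at 72 h, which did not pass. It rose by 0.39 ± 0.0587 with EGFP (adjusted p = 0.00149) and fell by 0.75 ± 0.0587 with W20 (adjusted p = 7.39e-05). Krt7 ran against the other keratins in NPC, reading -1.80 and -1.91 in EGFP NPC, -2.41 and -2.48 in W20 NPC, -1.60 and -1.89 in EGFP 72 h and -1.97 and -1.85 in W20 72 h. It was lower with W20 there, at -0.59 ± 0.102 (adjusted p = 0.00467), and rose over 72 h with W20 by 0.53 ± 0.102 (adjusted p = 0.00405), while its other 2 differences did not pass. Both passed without EGFP 72 h replicate 2, at 0.25 over 72 h with EGFP and -0.31 for W20 at 72 h (adjusted p = 0.0398 and 0.0341).

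**Figure D3:**
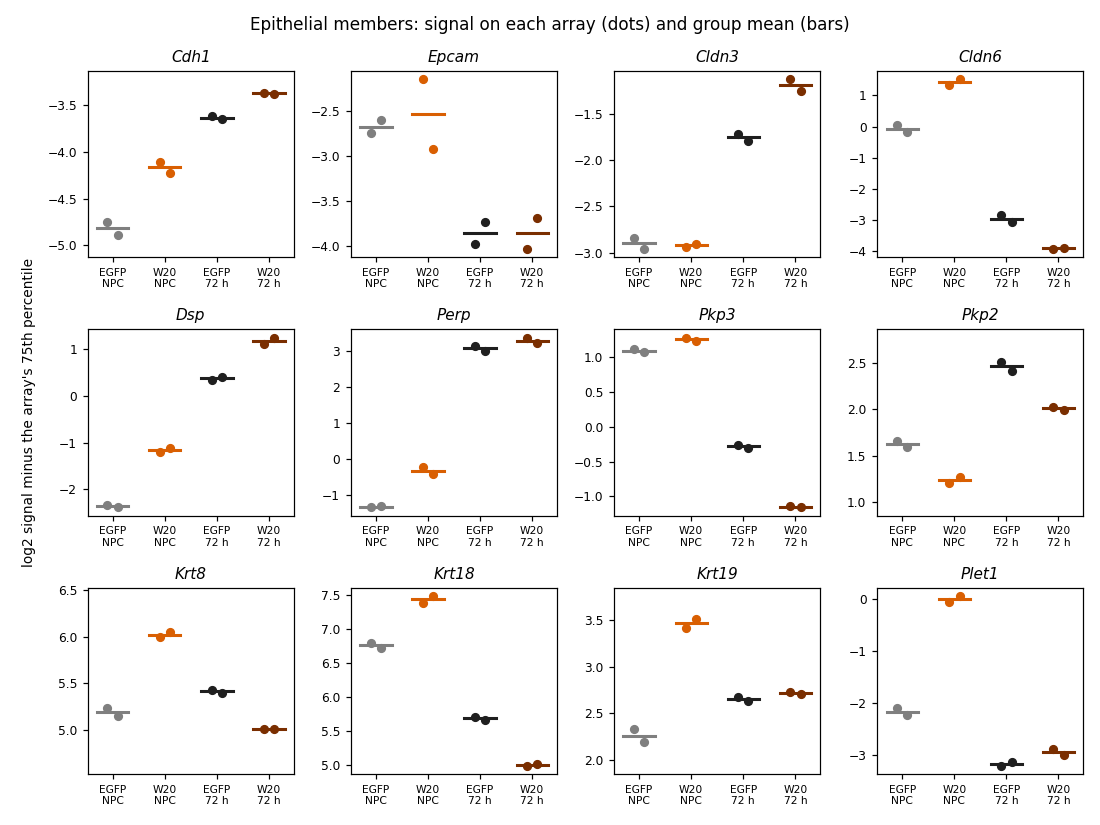
Signal of 12 epithelial members on each array (dots) with the group mean (bars), on a y axis of log2 signal minus the array's 75th percentile that differs between panels, for the groups EGFP NPC, W20 NPC, EGFP 72 h and W20 72 h. Cdh1, Dsp and Perp are lowest in EGFP NPC and highest in W20 72 h, whereas Cldn6, Krt18 and Plet1 are highest in W20 NPC.

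Snail and Zeb factors bind E-boxes, and the promoters of epithelial genes are known to hold them. The letters CAGGTG, or CACCTG on the other strand, which are the same motif, were searched in the 250 bases before each RefSeq start (GRCm38.p6). Of 17 epithelial members with a promoter in the table, 12 held at least 1 match (70.6%), as did 1 of 6 mesenchymal members, Snai1 itself, against 19.4% of 27025 genes and 17.2% of all 32851 windows. A match is a description of the letters and not a site of binding. Only 17 of the 26 epithelial members had a promoter window to search, and Cdh1 and Perp were among those without one. Of the members with a window, 2 of the 4 epithelial ones that rose over 72 h with W20 held a match. So did 6 of the 9 that fell. The promoters of Krt8, Krt18 and Cldn6, which were all higher with W20 in NPC and fell over 72 h with W20, and of Dsp and Cldn3, which rose over 72 h, are printed 5′ to 3′ on the gene's strand, ending at the base before the start, with matches in capitals.

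Krt8 (chr15:102004343-102004592, minus strand): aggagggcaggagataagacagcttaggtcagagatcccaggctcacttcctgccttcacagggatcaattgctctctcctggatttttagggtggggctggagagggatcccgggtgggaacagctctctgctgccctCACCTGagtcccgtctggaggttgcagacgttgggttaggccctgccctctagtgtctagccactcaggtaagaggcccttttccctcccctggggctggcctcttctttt
Krt18 (chr15:102027966-102028215, plus strand): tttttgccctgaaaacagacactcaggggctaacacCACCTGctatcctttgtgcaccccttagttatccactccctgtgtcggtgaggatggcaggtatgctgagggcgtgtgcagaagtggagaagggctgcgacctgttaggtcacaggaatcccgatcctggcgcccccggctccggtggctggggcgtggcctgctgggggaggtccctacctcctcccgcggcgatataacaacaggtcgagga
Cldn6 (chr17:23679115-23679364, plus strand): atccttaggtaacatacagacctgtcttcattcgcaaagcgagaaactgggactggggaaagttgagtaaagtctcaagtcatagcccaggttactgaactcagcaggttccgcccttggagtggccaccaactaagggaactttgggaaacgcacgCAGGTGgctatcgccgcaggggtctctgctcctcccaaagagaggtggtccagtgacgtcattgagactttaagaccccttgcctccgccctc
Dsp (chr13:38151044-38151293, plus strand): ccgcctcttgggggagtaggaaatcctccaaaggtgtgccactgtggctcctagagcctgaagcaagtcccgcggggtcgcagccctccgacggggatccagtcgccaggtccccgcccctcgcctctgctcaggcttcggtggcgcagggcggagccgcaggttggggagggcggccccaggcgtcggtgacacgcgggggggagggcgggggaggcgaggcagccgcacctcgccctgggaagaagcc
Cldn3 (chr5:134985964-134986213, plus strand): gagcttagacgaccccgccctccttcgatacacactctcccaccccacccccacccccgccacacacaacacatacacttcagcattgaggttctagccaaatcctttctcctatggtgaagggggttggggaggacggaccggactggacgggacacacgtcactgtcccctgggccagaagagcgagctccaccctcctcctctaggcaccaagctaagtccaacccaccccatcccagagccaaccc

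The match in Krt8 begins 111 bases before the start, in Krt18 214 and in Cldn6 93, and the windows of Dsp and Cldn3 held none. The printed windows are examples and do not stand for the list. Tjp3 and Krt7 held a match and rose over 72 h with W20, and Tjp1, Jup and Cldn1 held none and fell. Krt8 and Krt18 are neighbours on chromosome 15, on opposite strands.

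Plet1 codes for a surface protein of placental and epithelial progenitors and showed the largest W20 effect in NPC among the 31 tested probes. Its tested probe read -2.10 and -2.23 in EGFP NPC, -0.06 and 0.05 in W20 NPC, -3.20 and -3.13 in EGFP 72 h and -2.89 and -3.003 in W20 72 h. The W20 NPC arrays stood well above every other array. Plet1 was 2.16 ± 0.0697 higher with W20 in NPC (4.47-fold, adjusted p = 5.34e-05). It fell by 1.00 ± 0.0697 with EGFP (adjusted p = 6.08e-05) and fell by 2.94 ± 0.0697 with W20 (7.67-fold, adjusted p = 7.38e-07). The second probe was well above background on the W20 NPC arrays alone, and its EGFP change of -0.11 ± 0.188 did not pass. At 72 h the tested probe was 0.22 ± 0.0697 higher with W20 (adjusted p = 0.0411), but the mean of the 2 probes was -0.15 (adjusted p = 0.222). That call also ended without EGFP 72 h replicate 1 or 2 or W20 72 h replicate 1 (adjusted p = 0.0779 to 0.171) and under 5 other settings: the replicate block (adjusted p = 0.0643), median scaling (adjusted p = 0.07), spike-in scaling (adjusted p = 0.121), no filter on dim probes (adjusted p = 0.0615) and only the arrays compared (adjusted p = 0.0506).

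Of the regulators of the epithelial state, the splicing factor Esrp2 read -3.43 and -3.42 in EGFP NPC, -2.89 and -2.89 in W20 NPC, -3.74 and -3.78 in EGFP 72 h and -3.71 and -3.60 in W20 72 h. The W20 NPC arrays were the highest. Esrp2 was 0.54 ± 0.0432 higher with W20 in NPC (adjusted p = 0.000327) and fell by 0.34 ± 0.0432 with EGFP (adjusted p = 0.000771) and fell by 0.77 ± 0.0432 with W20 (adjusted p = 1.78e-05) over 72 h. At 72 h the W20 difference of 0.11 ± 0.0432 did not pass (adjusted p = 0.0832), but did with quantile scaling and without W20 72 h replicate 1 (adjusted p = 0.0226 to 0.03). Its relative Esrp1 could not be tested, being well above background on 3 of 8 arrays.

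Grhl2, a transcription factor that activates Cdh1 and claudin genes, read -6.15 and -5.53 in EGFP NPC, -5.73 and -5.99 in W20 NPC, -4.57 and -4.68 in EGFP 72 h and -4.11 and -4.13 in W20 72 h. It was well above background on 0 of 4 NPC arrays and on all 4 at 72 h. It was at least 1.92-fold higher at 72 h with EGFP (adjusted p = 0.00238) and at least 2.46-fold with W20 (adjusted p = 0.000416). With normexp the EGFP change was 0.12 (adjusted p = 0.495), which ended that call. At 72 h the W20 difference of 0.51 ± 0.201 did not pass (adjusted p = 0.0804), but did with only the arrays compared and without either EGFP NPC array (adjusted p = 0.00602 to 0.012). Of 2 other Grhl2 probes, 1 was well above background on a single EGFP 72 h array, at -4.33, and the other on none. The polarity gene Crb3 and the trafficking gene Rab25 were well above background on no array.

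Among the mesenchymal transcription factors, Snai2 (Slug) fell most. It read 2.70 and 2.65 in EGFP NPC, 2.67 and 2.70 in W20 NPC, 0.88 and 0.91 in EGFP 72 h and 0.34 and 0.29 in W20 72 h. The NPC arrays of both kinds overlapped, and at 72 h both W20 arrays were below both EGFP arrays. Snai2 fell by 1.78 ± 0.0366 with EGFP (3.42-fold, adjusted p = 9.26e-07) and fell by 2.37 ± 0.0366 with W20 (5.18-fold, adjusted p = 2.6e-07). The W20 difference was -0.58 ± 0.0366 at 72 h (adjusted p = 0.000163) and 0.01 ± 0.0366 in NPC, which did not pass.

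Snai1, the founding repressor of E-cadherin, read 1.98 and 2.10 in EGFP NPC, 1.64 and 1.58 in W20 NPC, 1.54 and 1.51 in EGFP 72 h and 1.08 and 1.11 in W20 72 h. It fell by 0.51 ± 0.0492 with EGFP and fell by 0.51 ± 0.0492 with W20 (adjusted p = 0.000223 and 0.000183), and W20 cells were lower at both stages, by -0.43 ± 0.0492 in NPC and -0.43 ± 0.0492 at 72 h (adjusted p = 0.00101 and 0.00116). The W20 effects at the 2 stages differed by 0.00 ± 0.0696 (adjusted p = 0.994). Twist1, a bHLH factor of mesenchyme, was lower with W20 at both stages as well, at -0.41 ± 0.0568 in NPC and -0.40 ± 0.0568 at 72 h (adjusted p = 0.00189 and 0.00248), within a range of 0.30 to 0.96 over the 8 arrays. Its change over 72 h was -0.17 ± 0.0568 with EGFP (adjusted p = 0.0381) and -0.15 ± 0.0568 with W20 (adjusted p = 0.0504), and the EGFP call ended under 9 settings: median or spike-in scaling, no filter, only the arrays compared, and without EGFP NPC replicate 2 or any 1 array of 72 h (adjusted p = 0.0533 to 0.164). The change with W20 passed without either EGFP NPC array and over probes well above background on all 8 arrays (adjusted p = 0.0275 to 0.0356).

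Twist2 read -0.43 and -0.40 in EGFP NPC, -0.48 and -0.45 in W20 NPC, -1.77 and -1.88 in EGFP 72 h and -1.45 and -1.38 in W20 72 h. All arrays of 72 h were below all NPC arrays, and at 72 h both W20 arrays were above both EGFP arrays. Twist2 fell by 1.41 ± 0.0484 with EGFP (2.65-fold, adjusted p = 4.39e-06) and fell by 0.94 ± 0.0484 with W20 (adjusted p = 1.23e-05). It was 0.41 ± 0.0484 higher with W20 at 72 h (adjusted p = 0.00129), the reverse of Snai2, Snai1 and Twist1 there.

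Zeb1, a repressor that acts with the Snail factors, rose as they fell. It read 0.26 and 0.38 in EGFP NPC, 0.24 and 0.22 in W20 NPC, 0.89 and 0.96 in EGFP 72 h and 0.94 and 0.97 in W20 72 h, with every array of 72 h above every NPC array. It rose by 0.60 ± 0.0491 with EGFP and by 0.72 ± 0.0491 with W20 (adjusted p = 0.000115 and 3.96e-05), and no W20 difference passed (-0.09 ± 0.0491 in NPC and 0.03 ± 0.0491 at 72 h). That in NPC passed without EGFP NPC replicate 1 (adjusted p = 0.0472). Zeb2 lay between 0.81 and 1.01 on all 8 arrays, and its differences ranged from -0.12 to 0.15. The call of Zeb2 as higher in W20 NPC (0.15 ± 0.0346, adjusted p = 0.0128) ended with normexp (adjusted p = 0.0945), with spike-in scaling (adjusted p = 0.21) and without EGFP NPC replicate 2 or the second W20 NPC replicate (adjusted p = 0.0702 to 0.0744). Its fall of 0.12 over 72 h with W20 (adjusted p = 0.0204) ended with normexp, with median or spike-in scaling, with only the arrays compared and without W20 NPC replicate 2 or W20 72 h replicate 2 (adjusted p = 0.0555 to 0.252). Of its 3 probes, 1 other gave an EGFP change of -0.21 ± 0.0642 (adjusted p over probes = 0.0262), against 0.01 ± 0.0346 on the tested probe, so no direction is given for it there.

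Cdh2, N-cadherin, the cadherin of neural and mesenchymal cells, read -0.70 and -0.64 in EGFP NPC, -0.88 and -0.82 in W20 NPC, 0.64 and 0.53 in EGFP 72 h and 0.44 and 0.65 in W20 72 h. All arrays of 72 h were above all NPC arrays. Cdh2 rose by 1.25 ± 0.0794 with EGFP (2.38-fold, adjusted p = 4.19e-05) and by 1.39 ± 0.0794 with W20 (2.63-fold, adjusted p = 1.88e-05), alongside the rise of Cdh1. The W20 differences, -0.18 ± 0.0794 in NPC (adjusted p = 0.102) and -0.04 ± 0.0794 at 72 h, did not pass. The NPC difference passed with only the NPC arrays (adjusted p = 0.0315), with the authors' value table (adjusted p = 0.0301) and without either W20 72 h array (adjusted p = 0.0362 for each).

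Cdh11, a cadherin of mesenchymal cells, had 3 probes that disagreed, all well above background on all 8 arrays. The brightest, which was the tested one, lay between 2.33 and 2.64, with a W20 difference in NPC of 0.01 ± 0.043 that did not pass and one at 72 h of 0.17 ± 0.043 (adjusted p = 0.0178). The latter ended with quantile or spike-in scaling, with the mean of the probes and without EGFP 72 h replicate 1 or W20 72 h replicate 2 (adjusted p = 0.0683 to 0.685). A second probe read -0.45 and -0.32 in EGFP NPC, -2.83 and -2.97 in W20 NPC, -0.66 and -0.60 in EGFP 72 h and -0.63 and -0.65 in W20 72 h, and the other read -1.01 and -0.81 in EGFP NPC, -3.29 and -3.50 in W20 NPC, -1.12 and -1.06 in EGFP 72 h and -1.13 and -1.18 in W20 72 h. On these the W20 NPC arrays stood alone, lower by more than 2 log2 units than all others. Their W20 differences in NPC were -2.52 ± 0.0657 and -2.49 ± 0.0932 (adjusted p over probes = 7.19e-05 and 7.19e-05), and at 72 h -0.01 ± 0.0657 and -0.06 ± 0.0932, which did not pass. No direction is given for the gene, since its probes carry the same RefSeq accession and the transcripts they read are not given in the sources used here.

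**Figure D4:**
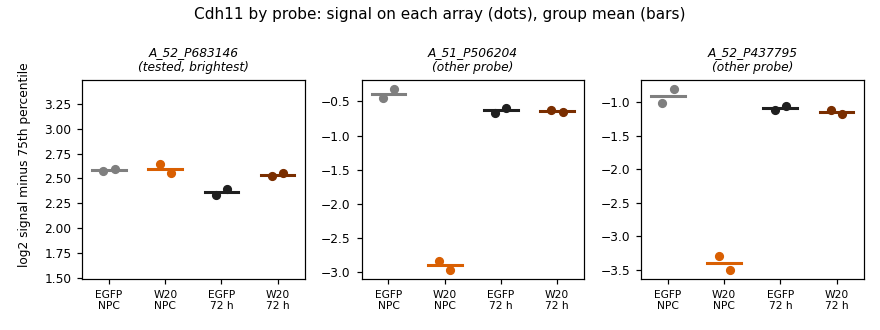
Signal of the 3 Cdh11 probes on each array (dots) with group means (bars), on a y axis of log2 signal minus the array's 75th percentile. The tested probe is nearly level across the 4 groups, while on the 2 other probes the W20 NPC arrays lie between -3.50 and -2.83 and all other arrays between -1.18 and -0.32.

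Of the remaining markers, Vim, the intermediate filament vimentin, passed in no comparison, with values from 6.82 to 7.17 and differences from -0.05 to 0.20. With median scaling its EGFP change passed (adjusted p = 0.0325), as it did with normexp (adjusted p = 0.0197) and without EGFP 72 h replicate 1 (adjusted p = 0.0338). Its W20 difference in NPC passed with normexp (adjusted p = 0.0407). S100a4, the calcium-binding protein also called fibroblast-specific protein, read 8.76 and 8.78 in EGFP NPC, 8.86 and 8.88 in W20 NPC, 8.26 and 8.26 in EGFP 72 h and 7.71 and 7.61 in W20 72 h. The NPC arrays were above the arrays of 72 h, and W20 72 h was the lowest. S100a4 fell by 0.51 ± 0.0386 with EGFP (adjusted p = 8.53e-05) and fell by 1.21 ± 0.0386 with W20 (2.32-fold, adjusted p = 1.99e-06), and was -0.60 ± 0.0386 with W20 at 72 h (adjusted p = 0.000173). In NPC its difference of 0.10 ± 0.0386 did not pass (adjusted p = 0.0625), but did without either W20 72 h array (adjusted p = 0.0321).

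Thy1, a surface glycoprotein of fibroblasts and neurons that is lost early in fibroblast reprogramming, read -2.94 and -2.93 in EGFP NPC, -3.72 and -3.67 in W20 NPC, -2.26 and -2.29 in EGFP 72 h and -4.09 and -4.11 in W20 72 h on its tested probe. The groups did not overlap, with EGFP 72 h the highest and W20 72 h the lowest. Thy1 rose by 0.66 ± 0.0326 with EGFP (adjusted p = 1.57e-05) and fell by 0.41 ± 0.0326 with W20 (adjusted p = 8.23e-05). W20 cells were lower by -0.76 ± 0.0326 in NPC (adjusted p = 7.68e-05) and -1.82 ± 0.0326 at 72 h (3.54-fold, adjusted p = 2.14e-05). The fall with W20 was 0.14 in size with normexp (adjusted p = 0.0803), which ended it. A second Thy1 probe, well above background on 3 of 8 arrays, passed in no comparison, and its difference at 72 h was 0.22 ± 0.38. The mean of both probes passed neither over 72 h with EGFP (-0.13, adjusted p = 0.572) nor with W20 (adjusted p = 0.417).

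**Figure D5:**
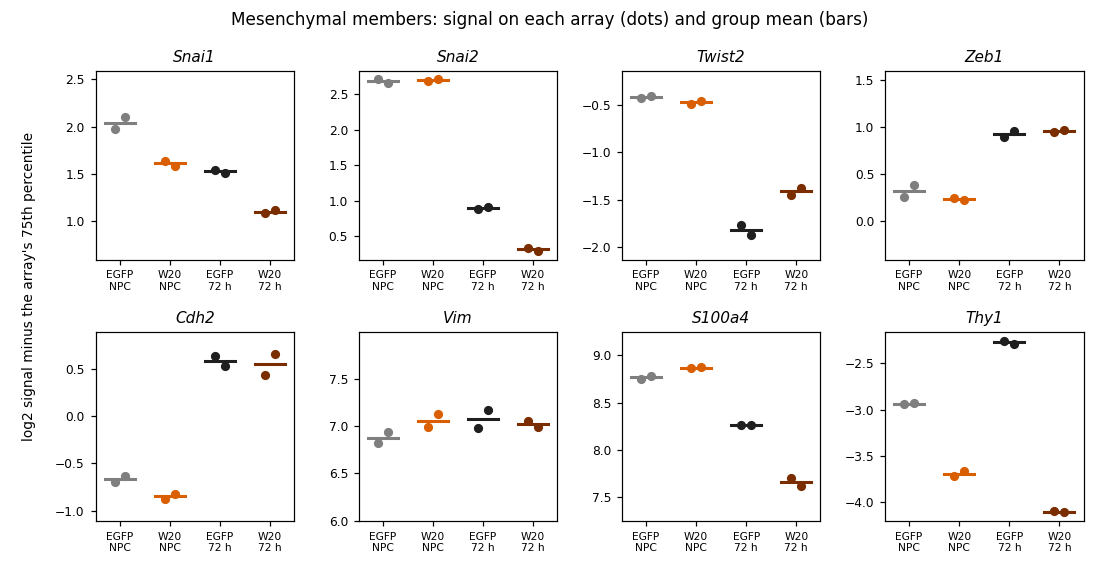
Signal of 8 mesenchymal members on each array (dots) with the group mean (bars), on a y axis of log2 signal minus the array's 75th percentile that differs between panels. Snai2, Twist2 and S100a4 are lower on all arrays of 72 h than on all NPC arrays, Cdh2 and Zeb1 are higher, and Vim overlaps between the groups.

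Other epithelial and mesenchymal genes were read from 2 further lists. Of 39 other epithelial genes tested, 15 were higher and 6 lower with W20 in NPC (median 0.16), and 13 were higher and 13 lower at 72 h (median 0.03). Higher were 38.5% in NPC and 33.3% at 72 h, against 31.8% and 28.5% of all genes. Lower were 15.4% and 33.3%, against 23.7% and 24.3%. Over 72 h 18 rose and 14 fell with EGFP (median 0.03), and 17 rose and 19 fell with W20 (median -0.20). The shares rising were 46.2% with EGFP and 43.6% with W20, against 36.1% and 37.5% of all genes. The shares falling were 35.9% and 48.7%, against 33.9% and 37.2%. Cd24a, a surface glycoprotein of epithelial and neural progenitors, rose by 4.29 ± 0.0555 with EGFP and by 4.44 ± 0.0555 with W20 (adjusted p = 2.6e-07 and 1.59e-07). Krt14, a keratin of basal epithelia, rose by 3.17 ± 0.0382 and 4.00 ± 0.0382 (adjusted p = 2.25e-07 and 8.73e-08). Ap1m2, an adaptor for sorting to the basolateral membrane, was at least 2.23-fold lower at 72 h with EGFP and at least 2.14-fold with W20 (adjusted p = 0.00386 and 0.00147). Ap1m2 passed the filter only through NPC, so a difference was built into its entry.

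In NPC the desmoglein Dsg2 was 1.24 ± 0.281 and Cd24a 1.03 ± 0.0555 higher with W20, and Mal2, a protein of apical transport, was -0.97 ± 0.0559 (adjusted p = 0.0123, 0.00012 and 0.000139). At 72 h Cd24a was 1.17 ± 0.0555 higher with W20 (adjusted p = 7.86e-05), and Lsr, of tricellular junctions, was lower at -1.11 ± 0.0345 (adjusted p = 3.34e-05). Cgn, the junction protein cingulin, was lower too (adjusted p = 0.000886), but was well above background on no W20 72 h array, and its bound gives no fold.

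Of 36 other mesenchymal genes tested, 23 were lower and 3 higher with W20 in NPC (median -0.44), and 25 were lower and 2 higher at 72 h (median -0.44). Lower were 63.9% in NPC and 69.4% at 72 h, against 23.7% and 24.3% of all genes. The 36 include the 6 fibroblast markers given above, so these counts are not separate from those. Over 72 h 25 fell and 8 rose with EGFP (median -0.39), and 23 fell and 10 rose with W20 (median -0.30). That is 69.4% falling with EGFP and 63.9% with W20, against 33.9% and 37.2% of all genes. In NPC the receptor Pdgfrb was -2.26 ± 0.0834 with W20 (adjusted p = 5.8e-05), and Tgfb2, a ligand that induces mesenchymal change, was -1.97 ± 0.0817 (adjusted p = 7.42e-05). The proteoglycan gene Lum was at least 1.97-fold lower with W20 in NPC (adjusted p = 0.0158). Lum passed the filter only through EGFP NPC, so a difference was built into its entry. At 72 h Tagln, a contractile protein, was -1.81 ± 0.0663, the matrix protease Mmp14 -1.23 ± 0.0443 and Pdgfrb -1.12 ± 0.0834 with W20 (adjusted p = 4.23e-05, 4.02e-05 and 0.000276).

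Over 72 h Fn1, fibronectin, fell by 2.18 ± 0.115 with EGFP and fell by 2.11 ± 0.115 with W20 (adjusted p = 2e-05 and 1.57e-05), and Hmga2, a chromatin protein that activates Snai1 and Twist1, fell by 2.03 ± 0.0417 and fell by 2.47 ± 0.0417 (adjusted p = 9.21e-07 and 2.79e-07). Lum was at least 2.48-fold lower at 72 h with EGFP (adjusted p = 0.00518), a difference likewise built into its entry through EGFP NPC. Tgfb2 rose over the same time by 2.81 ± 0.0817 with W20 (adjusted p = 1.45e-06).

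The interaction term tests whether the W20 effect at 72 h differed from that in NPC, which is the same as a difference between the changes over 72 h. Of 31 members, 13 had a lower and 3 a higher W20 effect at 72 h, or 41.9% and 9.68%, against 16.8% and 14.1% of all genes. Among them were Krt8, Krt18, Krt19, Cldn6 and Plet1, all epithelial genes raised by W20 in NPC, and the higher ones were Tjp3, Cldn3 and Twist2. The median over the members was -0.16, against -0.02 over all genes. With the mean of each gene's probes 5 members had a higher effect, Krt7 and Cdh11 being the ones added. On its tested probe the keratin Krt7 was at 0.42 ± 0.145, which did not pass (adjusted p = 0.0768). It did pass with normexp, over probes well above background on all 8 arrays and with the probe mean (adjusted p = 0.0265 to 0.0467). A second Krt7 probe, well above background on no W20 NPC array, was at 0.74 ± 0.177 (adjusted p over probes = 0.0294).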

How the data were processed

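Total RNA of 8 samples, 2 per group, was measured on Agilent whole mouse genome arrays with a single dye. Scanner output of Agilent Feature Extraction 10.7.3.1 was deposited, with 1 linear intensity per spot, and the processed signal used is already background-corrected, per the file headers. Log2 was taken, each array's 75th percentile was subtracted, control and outlier spots were left out, and spots of a probe were averaged. Accessions were named through RefSeq (GRCm38.p6), which gave 27584 of 41174 probes a symbol, and the brightest probe stood for a gene. A gene was tested if in 1 group or more both arrays of its probe were well above background. A model of 4 group means over 8 arrays was fitted with limma 3.58.1 in R 4.3.3 (4 residual and 1.76 prior degrees of freedom), with 2-sided p-values adjusted by Benjamini-Hochberg over 13615 genes and a threshold of 0.05; the procedure was tested on simulated data.

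Members and lists were chosen with earlier results of these data known, and counts over the lists are descriptions. Members past the threshold with a log2 difference of at least 0.5 in 1 of the first 4 comparisons have their value on every array; of the wider lists the 3 with the largest differences past the threshold in each comparison are named. Normexp (offset 50) used the median signal, as the mean signal was not used here. The authors' value table, on a log2 scale as deposited with its centring unstated, equalled each NPC array within 0.01 for nearly all probes after a shift. Its column for replicate 1 of each 72 h group was the average of those cells' NPC columns within 1e-06, so the table served only for W20 against EGFP in NPC. Same-numbered replicates correlated between -0.0851 and 0.106 in their deviations, so the numbers were not taken to pair the samples. Of the neural progenitor markers, 1 is not reported here.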

Additional observations from a re-analysis of the deposited data

Results flagged for a closer look

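The results below had a W20 effect that differed between the stages by the interaction term (W20 effect at 72 h minus that in NPC, limma, adjusted p under 0.05, n = 2 arrays per group). Of all genes tested 30.9% passed this test in either direction, and groups of 2 allow no search for outlying arrays.

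Cldn6 was at -2.46, Krt18 at -1.36, Krt8 at -1.24 and Pkp3 at -1.03, all of them higher with W20 in NPC and lower at 72 h. Opposite W20 effects of this kind make the value negative by definition. Plet1 was at -1.94, Krt19 at -1.14 and Perp at -0.79, all of them raised by W20 in NPC with a smaller W20 difference at 72 h. Dsp was at -0.409, Esrp2 at -0.432 and Cdh1 at -0.393, and these 3 ended under other settings: Dsp with normexp, spike-in scaling, the mean of its probes and without EGFP NPC replicate 2, Esrp2 with normexp and spike-in scaling, and Cdh1 with normexp, with spike-in scaling and without W20 NPC replicate 1 or any 1 array of 72 h. Of mesenchymal members Thy1 was at -1.07, S100a4 at -0.705 and Snai2 at -0.596; that of Thy1 ended with the mean of its probes.

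A higher W20 effect at 72 h than in NPC was measured for Tjp3 at 1.5, Cldn3 at 0.588 and Twist2 at 0.464, and Twist2 ended with spike-in scaling. Tjp3 was well above background on no NPC array, so its level there is not measured and the size of its value is not interpreted.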

How the results depend on the processing

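Over 31 members and 5 comparisons, 155 results were recomputed under 18 settings, with other probes of a gene added after seeing the data. Of 2675 values, 2507 kept their direction and side of the threshold, 103 lost and 48 gained the threshold and 17 changed sign; 99 of the 155 results kept both throughout. With normexp the interaction of Cdh1 was 0.12. With the mean of a gene's probes, Cdh11 was -1.67 for W20 in NPC and 1.48 over 72 h with W20, Thy1 was -0.13 over 72 h with EGFP and Plet1 -0.15 for W20 at 72 h. On its other probes Cdh11 was -2.52 and -2.49 for W20 in NPC, -0.0112 and -0.0621 at 72 h, and 2.26 and 2.25 over 72 h with W20. Another probe of Zeb2 gave -0.21 over 72 h with EGFP, the second Thy1 probe 0.22 for W20 at 72 h, -0.93 and 0.0313 over 72 h with EGFP and W20, and 0.96 for the interaction, and the second Plet1 probe -0.51 for W20 at 72 h. The cause was not tested.

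With spike-in scaling 4 members were higher with W20 at 72 h in place of 7, and with the mean of a gene's probes 5 in place of 3 had a higher interaction. Leaving out 1 array gave 9 to 13 members higher and 7 to 8 lower with W20 in NPC, 3 to 8 and 11 to 13 at 72 h, 12 to 13 rising and 12 to 15 falling with EGFP, 10 rising and 16 to 19 falling with W20, and 3 to 4 higher and 12 to 13 lower interactions. With the replicate number as a block, counts higher and lower were 11 and 7 in NPC, 7 and 12 at 72 h, 12 and 14 with EGFP, 10 and 18 with W20, and 3 and 13 for the interaction; the block ended the calls of Tjp1 over 72 h with EGFP and Plet1 at 72 h, added Perp at 72 h, and changed no other member's call.

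Over all genes, spike-in scaling left 2345 of 4330 higher in NPC, 1645 of 3875 at 72 h, and 862 of 1915 higher and 1042 of 2290 lower interactions; median scaling left 1154 higher interactions. In the other epithelial genes 8 in place of 13 were higher with W20 at 72 h (spike-in scaling) and 3 in place of 6 lower in NPC (mean of a gene's probes). In the other mesenchymal genes, with spike-in scaling 1 in place of 3 was higher in NPC and 5 in place of 10 had a lower interaction. A block for slide could not be fitted over 72 h, since each group lies on 1 slide. Signal near background limits Cldn1, Tjp3, Grhl2 and the 6 members not tested. Cdh1 was dim too, most so in EGFP NPC.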
